A study of Caenorhabditis elegans with 2 samples.

Results

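Nuclear pore and nuclear transport genes were taken by name, as the protein-coding genes of the Ensembl WBcel235 annotation whose symbols begin with npp-, imb-, ima-, xpo- or ran-. The rule gave 40 genes of 19973 protein-coding genes, 26 of them nucleoporins (npp-) and 14 transport receptors or parts of the Ran cycle. Chromatin bound by LSY-2, a zinc finger transcription factor of Caenorhabditis elegans, was mapped by ChIP-seq in entire L1 larvae of mixed sex, in 1 group of 2 biological replicates with no second condition. The strain, OP367, carries the allele unc-119(tm4063) on chromosome III and the transgene wgIs367, the insertion for eGFP-tagged LSY-2, in both replicates. Whole animals were used, so a peak cannot be given to a cell type. The lists hold no read counts, and sequencing depth is therefore unknown. No comparison between conditions exists in these data, and the counts below describe where peaks of the tagged protein lay.

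The nuclear pore complex is a channel through the nuclear envelope, built from many copies of each nucleoporin. The Y complex and the inner ring form its scaffold, membrane proteins anchor it, central channel nucleoporins with phenylalanine-glycine repeats form the barrier, and further nucleoporins form the cytoplasmic side and the nuclear basket. Importins and exportins of the importin beta family carry cargo through the channel, importin alpha proteins link import signals to importin beta, and the small GTPase Ran sets the direction of transport. In the C. elegans embryo many of these proteins also act when the nuclear envelope breaks down and reforms at each division.

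LSY-2 peaks stood at the promoters of most of these genes. A gene was counted when a peak past the authors' IDR threshold (a filter on reproducibility between replicates) had its summit in the promoter window, which reaches 1000 bp before and 200 bp after each annotated transcript start. Of the 40 genes, 32 had such a peak (80%, 95% exact Clopper-Pearson interval 64.4 to 90.9), against 16.9% of all protein-coding genes (3385 of 19973). Intervals cover the counting of genes only. Transport factors had a peak at 13 of 14 genes, with ran-2 the exception, and nucleoporins at 19 of 26. The 8 genes without one were npp-1, npp-4, npp-10, npp-11, npp-21, npp-24, npp-26 and ran-2. The share was not tested against other genes, since the gene set was named with results of these data in view.

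**Figure D1:**
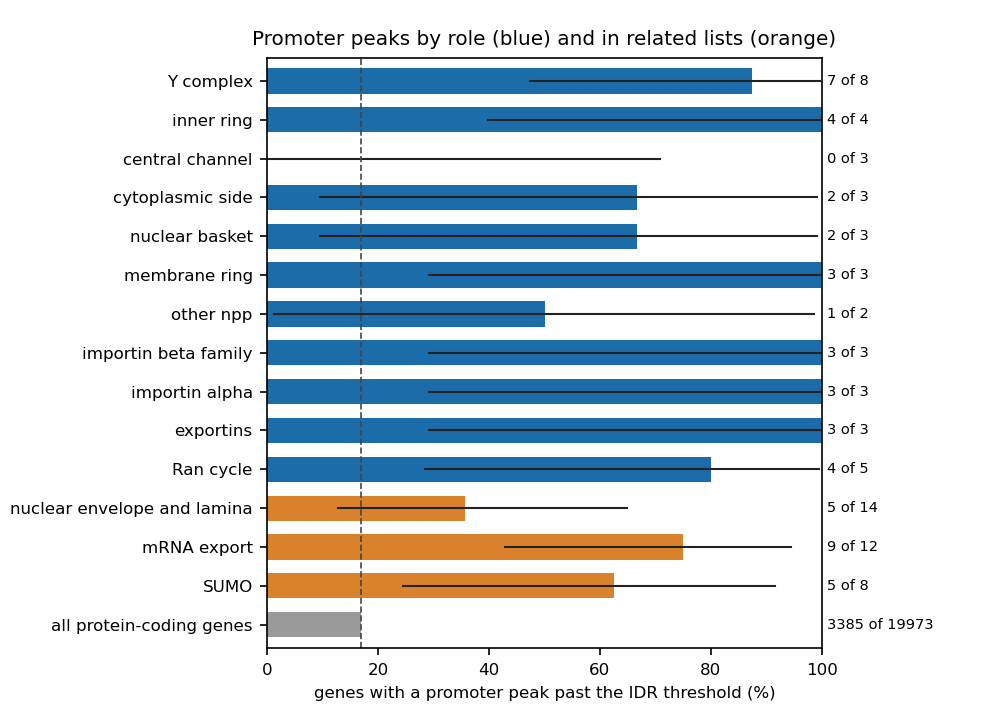
Share of genes with a promoter peak past the IDR threshold (x axis, %), by role of the nuclear pore and transport genes (blue), in related lists (orange) and over all protein-coding genes (grey, also the dashed line at 16.9%). Black lines are 95% exact intervals; the inner ring, membrane ring, importins and exportins had a peak at every gene, and the central channel at 0 of 3.

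The central part of the height distribution at these genes lay inside that of all peak-bearing genes. Peak signals are values the authors deposited without naming the statistic, so they rank peaks within a list and were not compared by a test. The median of the strongest promoter peak was 136.5 over the 32 genes, against 120.5 over the 3385 protein-coding genes that had one. The middle of the distribution (lower to upper quartile) ran from 84.6 to 210.6, against 71.1 to 232.3 over all such genes. Of the 32 peaks, 23 (71.9%) were in the stronger 2109 of the 4218 IDR peaks, as were those of 65% of all such genes. Among genes whose summit lay in no other protein-coding window the medians were further apart, 178 over 13 of these genes against 95.3 over 1624 of all. That setting was added after seeing the data. The medians were closer with each summit given to the nearest start alone (109.5 against 106.8) and with the stronger 2109 peaks (188 against 184.5). At the top of the list 1 of the 32, npp-3, ranked among the first 100 peaks and 5 (15.6%) among the first 500, against 19.5% of all such genes.

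**Figure D2:**
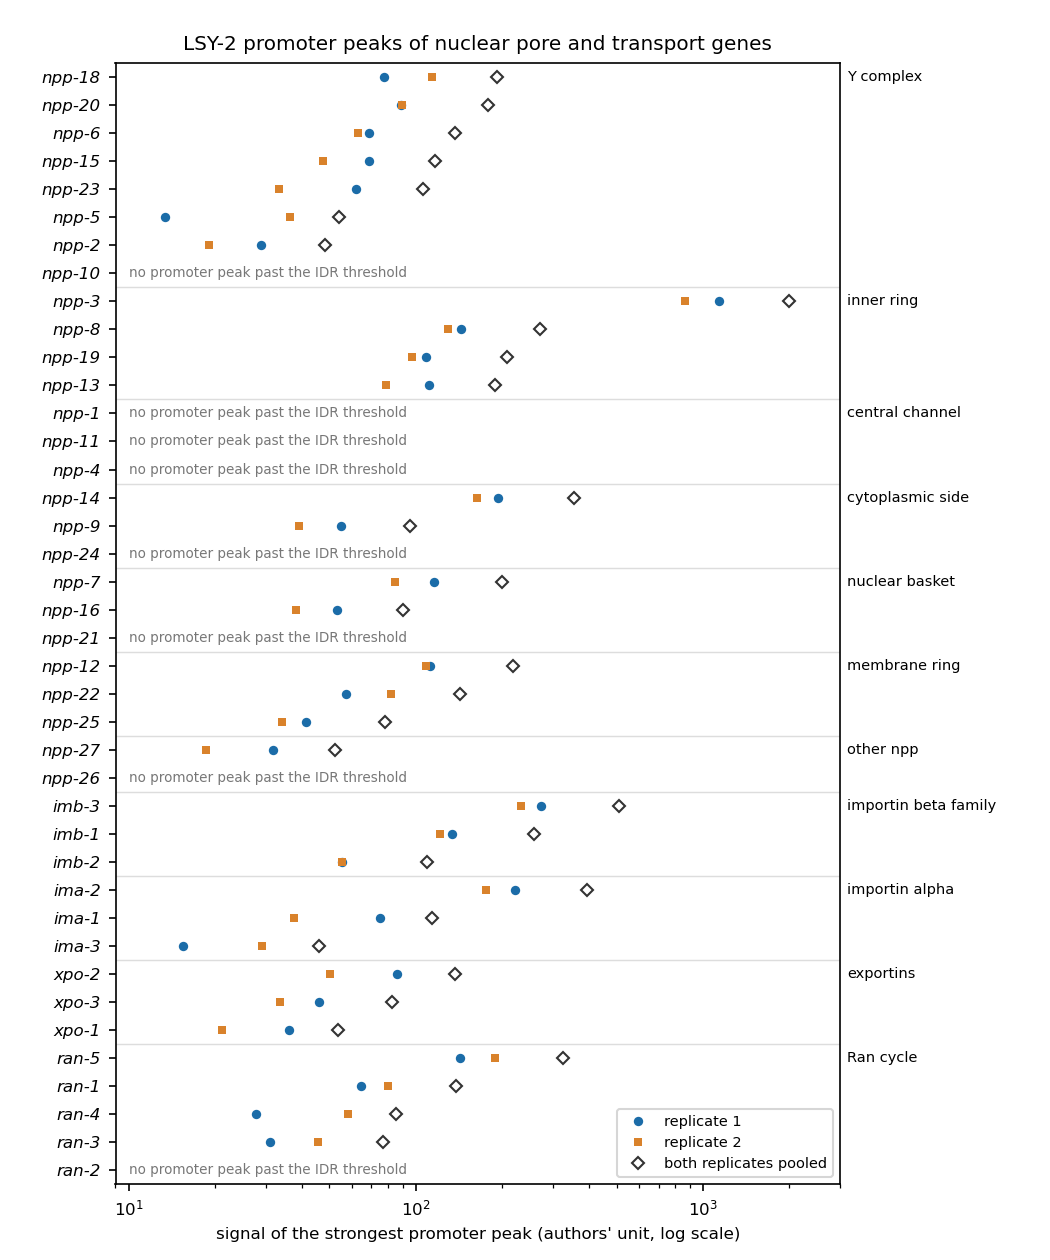
Signal of the strongest promoter peak (x axis, log scale, authors' unit) of each of the 40 genes, by role, in replicate 1 (circles), replicate 2 (squares) and both pooled (diamonds). Pooled signals lie between 46.1 and 509 for 31 genes, npp-3 stands apart at 1994, and 8 genes have no peak past the threshold.

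The inner ring had peaks at 4 of 4 genes, among them the strongest of the whole set. npp-3, the orthologue of vertebrate NUP205, had 1138 in replicate 1 and 868 in replicate 2 (mean 1003 ± 191, SD, n = 2), with a pooled signal of 1994 that ranked 33 among 4218. The next strongest gene of the set, imb-3, had 509, so npp-3 was alone at that height. The npp-3 summit lay 67 bp upstream of its own start and 293 bp upstream of top-2, a DNA topoisomerase II gene on the opposite strand, whose window it shares. Next came npp-8, the orthologue of NUP155, with 143 and 129.6 in the replicates and 270.4 in the pool. npp-19, which encodes the NUP35 orthologue, had 109 and 97.3 with 208 in the pool. The NUP93 orthologue npp-13 had 111 and 78.7 with 188 in the pool. In all 4 genes replicate 1 was the higher one, and the summits of npp-8, npp-13 and npp-19 lay in no other protein-coding window.

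The Y complex, the other main scaffold, had peaks at 7 of 8 genes, all lower than those of the inner ring except that of npp-18. npp-18, the SEH1 gene, had 77.3 in replicate 1 and 113.8 in replicate 2 (mean 95.5 ± 25.8, SD, n = 2) and 192 in the pool. npp-20, the SEC13 gene, had 89.1 and 89.2 with 178 in the pool, the closest match between replicates in the group. These were the highest 2 of the group. npp-6 (NUP160) had 68.7 and 62.7, with a pooled 136.5. npp-15 (NUP133) had 68.9 and 47.5, with a pooled 117. npp-23 (NUP43) had 62.1 and 33.4, with a pooled 106. The npp-6 summit lay inside an intron of spd-5, a centrosome scaffold gene on the opposite strand, and npp-15 shared its peak with C29E4.13, whose start was only 29 bp away. npp-5 (NUP107) was low, with 13.4 in replicate 1, 36.6 in replicate 2 and a pooled 53.9. npp-2 (NUP85) was the lowest, with 28.8 and 19.1 and a pooled 48.3. Both pooled values lie close to the threshold of 42.2, and each of these genes loses its peak when 1 replicate is used alone, npp-5 without replicate 2 and npp-2 without replicate 1. npp-10, which encodes the precursor of NUP98 and NUP96, had no pooled peak in its window at any height.

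The central channel was the role group without peaks. npp-1 (NUP54), npp-4 (NUP58) and npp-11 (NUP62), whose proteins together line the channel, gave 0 of 3, a count that allows shares of up to 70.8% by its exact interval. npp-11 had a peak below the threshold 852 bp upstream, with 16.8 and 14.1 in the replicates and a pooled 29.2. For npp-4 the nearest summit past the threshold, with a signal of 51, lay 1615 bp upstream and so outside the window. npp-1 had no peak in its window in the pooled list or in either replicate, and its nearest summit past the threshold was 9642 bp away.

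On the cytoplasmic side, npp-14 and npp-9 had peaks and npp-24 did not. npp-14 (NUP214) had 193 and 163 in the replicates and 355 in the pool, below npp-3 alone among nucleoporins, with the start of the mRNA capping enzyme gene cel-1 48 bp from the summit. npp-9 (NUP358) had 54.9 and 39.3 with 95.6 in the pool. npp-24 (NUP88) had 8.93 and 8.24 in the replicates and a pooled 17 at 68 bp upstream, far under the threshold, and its nearest summit past it was 31706 bp away. In the nuclear basket, npp-7 (NUP153) had 116 and 84.8 with a pooled 199.6. npp-16 (NUP50) had 53 and 38.2 with a pooled 90.1, and npp-21 (TPR) had none. The npp-7 peak lay nearer to unc-40, the netrin receptor gene on the opposite strand (281 bp), than to npp-7 (480 bp).

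All 3 genes for pore membrane proteins had a peak. npp-12 (gp210) had 112 in replicate 1 and 108.5 in replicate 2, and 218 in the pool. Its strongest summit lay 663 bp upstream, the farthest of the set, and next to T23H2.3; a further peak with a signal of 134 lay 216 bp upstream. npp-22 (NDC1) had 57.2 and 82.3 with 142 in the pool, at a summit inside the 3' UTR of the upstream gene spe-42. npp-25 (TMEM33) had 41.4 and 34.1 with 78.2 in the pool. Of the remaining nucleoporins, npp-27, a C3HC-type zinc finger protein gene in RefSeq, had 31.7 and 18.6 with 52.2 in the pool and a further peak of 47, and npp-26, which RefSeq names as GLE1, had none.

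Importin genes had peaks at 6 of 6 members, led by imb-3 and ima-2. imb-3, an importin beta family gene, had 272 in replicate 1 and 233 in replicate 2 (mean 252.4 ± 27.9, SD, n = 2) and 509 in the pool. imb-1, the gene for importin beta itself, had 133 and 121 and 257 in the pool. Its summit lay 102 bp upstream, and 47 bp from the start of mfsd-13.1 on the opposite strand. The transportin gene imb-2 had 55.2 and 55.2 with 109 in the pool. Replicate values lay close together at these 3 genes. The importin alpha genes ran from 46.1 to 395 in the pool. ima-2 had 221 in replicate 1 and 176 in replicate 2, with 395 in the pool. ima-1 had 75.2 and 37.8, with a pooled 113. ima-3 had 15.5 and 29.2, with a pooled 46.1, the lowest of the 32 and just above the threshold. As for npp-5, the ima-3 peak is lost when replicate 1 is used alone.

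The exportin genes had peaks at 3 of 3 members and all were of moderate or low height. xpo-2, the gene for the exportin that returns importin alpha to the cytoplasm, had 85.9 and 50.3 with 136.4 in the pool. xpo-3, the tRNA exportin gene, had 46 and 33.6 with 82.7, at a summit inside the non-coding gene C49H3.14. xpo-1, the orthologue of CRM1 and the main exporter of proteins with leucine-rich export signals, had 36.2 and 21.1 with 53.8. Replicate 1 was higher at all 3.

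Of the Ran cycle genes, 4 of 5 had a peak, and all 4 were higher in replicate 2. ran-5, which encodes a protein with a Ran-binding domain, had 143 in replicate 1 and 188 in replicate 2 (mean 165.5 ± 32.3, SD, n = 2) and 327 in the pool. ran-1, the gene for Ran, had 64.3 and 80.3, 138 in the pool and a summit 484 bp upstream. The exchange factor gene ran-3 (RCC1) had 31.1 and 45.7 with a pooled 77.1. The summits of ran-1, ran-3 and ran-5 lay nearer to the starts of dkc-1, C26D10.3 and R12C12.6, respectively, than to their own. ran-4, the gene for NTF2, which brings Ran back into the nucleus, had 27.9 and 57.9 with 85.2. Over all 32 genes replicate 2 was the higher one at 10, the others being npp-5, npp-18, npp-20, npp-22, imb-2 and ima-3, and replicate 1 was higher at 22 (68.8%), against 79.1% of the peak-bearing protein-coding genes with a summit in both replicates. With 2 replicates and unscaled signals this order was not tested. The signals differed over 2-fold between replicates at npp-5 and ran-4, and 28 of the 32 peaks (87.5%) matched a summit in the strongest 4218 of both replicates, against 86.3% over all such genes. ran-2, the gene for the GTPase-activating protein of Ran, had no pooled peak in its window and weak ones of 8.5 in replicate 1 and 10.4 in replicate 2.

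The sequences around the summits are shown for the strongest printable peak of several role groups, so that the letters searched below can be read beside the values above. They come from the genome of the RefSeq copy of WBcel235 (ce11 coordinates). Each line holds 106 bases on the strand of the named gene, 5' to 3'. The summit is at base 51 in plus-strand lines and at base 56 in minus-strand lines. In the ran-5 line 64 of the 106 bases are coding sequence. Capitals mark any match, on either strand, to GAGAGA (the first 6-mer), GACGCA (the second) or ACCGTA (the third), which were picked because an earlier look at all peaks of these data found them near summits. Shown are npp-3 at chrII:11874805-11874910 (minus strand), ran-5 at chrII:6047804-6047909 (plus), npp-18 at chrIII:13296657-13296762 (plus), ima-1 at chrV:11239335-11239440 (plus), imb-2 at chrII:14365375-14365480 (plus), npp-9 at chrIII:3404591-3404696 (minus) and npp-16 at chrIII:11915815-11915920 (plus).
npp-3: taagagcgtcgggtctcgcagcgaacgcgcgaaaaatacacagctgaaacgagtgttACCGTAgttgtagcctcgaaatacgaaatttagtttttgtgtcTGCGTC
ran-5: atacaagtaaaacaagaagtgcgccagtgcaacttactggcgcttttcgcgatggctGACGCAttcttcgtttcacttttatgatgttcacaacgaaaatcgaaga
npp-18: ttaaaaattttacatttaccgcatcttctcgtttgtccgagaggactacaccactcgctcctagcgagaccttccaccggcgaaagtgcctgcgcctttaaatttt
ima-1: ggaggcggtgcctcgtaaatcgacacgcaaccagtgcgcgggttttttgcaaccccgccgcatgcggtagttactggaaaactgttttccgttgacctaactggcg
imb-2: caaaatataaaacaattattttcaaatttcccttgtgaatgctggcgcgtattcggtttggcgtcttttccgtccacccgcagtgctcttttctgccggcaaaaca
npp-9: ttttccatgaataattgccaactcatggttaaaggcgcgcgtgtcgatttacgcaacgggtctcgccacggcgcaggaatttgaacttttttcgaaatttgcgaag
npp-16: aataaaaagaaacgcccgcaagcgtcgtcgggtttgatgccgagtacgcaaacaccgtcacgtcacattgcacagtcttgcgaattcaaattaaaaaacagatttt

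The 6-mers were uncommon near these summits. Distances run from the summit to the lowest coordinate of a match. GAGAGA, its reverse complement included, began within 50 bp of the summit in 2 of 32 peaks (6.25%, exact interval 0.766 to 20.8), those of ran-1 and ran-4, against 24.8% of the 2485 peaks in protein-coding promoter windows. GACGCA did so in 4 of 32 (12.5%, exact interval 3.51 to 29), at npp-3, npp-7, imb-3 and ran-5, against 19.6%. ACCGTA did so in 1 of 32 (3.12%, exact interval 0.0791 to 16.2), at npp-3, against 10.3%. Any of the 3 stood near 6 summits (18.8%, exact interval 7.21 to 36.4), against 44.5%, and the other 26 peaks held none of them within that distance. Within 100 bp any of them stood near 8 summits (25%, exact interval 11.5 to 43.4), against 55.5%, with npp-27 and imb-1 added. In the npp-3 sequence above, ACCGTA fills bases 58 to 63 and the reverse complement of GACGCA bases 101 to 106, with 37 bases between them. Within 50 bp of the summit npp-3 alone among the 32 peaks had more than 1 kind of 6-mer, and within 100 bp npp-7 and npp-27 also had GAGAGA and GACGCA. At ran-4 GAGAGA occurred 3 times, 2 of them overlapping, and within 50 bp no match of 1 of the 6-mers overlapped another kind. Base composition was close to that of other promoters, with a median GC content of 44.8% over the 32 peaks, against 45.3% over the 2485. A match is a description of these letters alone, and these shares were not tested.

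**Figure D3:**
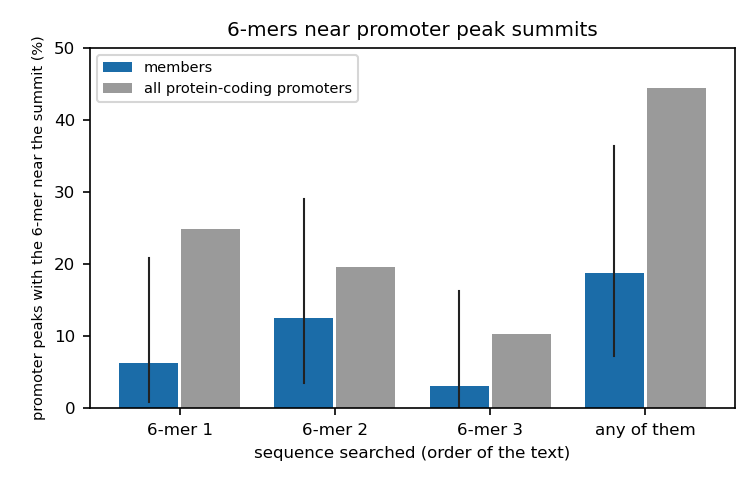
Share of promoter peaks (y axis, %) with a 6-mer beginning within 50 bp of the summit, for the 32 peaks of nuclear pore and transport genes (blue, black lines 95% exact intervals) and the 2485 peaks in protein-coding promoter windows (grey). The 6-mers are numbered as in the text, followed by any of them; the blue bars are the lower ones in each pair.

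Summits lay in a narrow stretch upstream of annotated starts of these genes. The median distance to the nearest annotated start of the gene was 252 bp upstream, against 222 bp over all peak-bearing protein-coding genes, with a range of 63 to 663 bp. None of the 32 strongest summits lay downstream of that nearest start. Over all such genes the upstream distance ran from -993 bp (downstream) to 1000 bp. The share of downstream summits over all such genes was not taken, so their absence here is not read as a trait. Of the 32, 31 lay within 500 bp upstream of it (96.9%), against 76.1% over all such genes. Within 300 bp were 23 (71.9%), against 59.5%. Intergenic sequence held 27 of the summits. The other 5 were those of npp-6 (intron of spd-5), npp-27 (intron of npp-27), ran-5 (coding exon of R12C12.6), npp-22 (3' UTR) and xpo-3 (non-coding gene). The npp-27 summit thus lay inside its gene, upstream of the nearer of its 2 annotated starts. No share over all promoter peaks was taken beside these counts, so they are not read as a trait of these genes. No summit past the threshold lay inside any of the 40 genes outside its promoter window. This includes the long genes npp-8 (IV, 1567921 to 1595824) and npp-13 (I, 2097346 to 2123443). The same count was not taken over all protein-coding genes, so this absence is not read as a trait of these genes either.

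**Figure D4:**
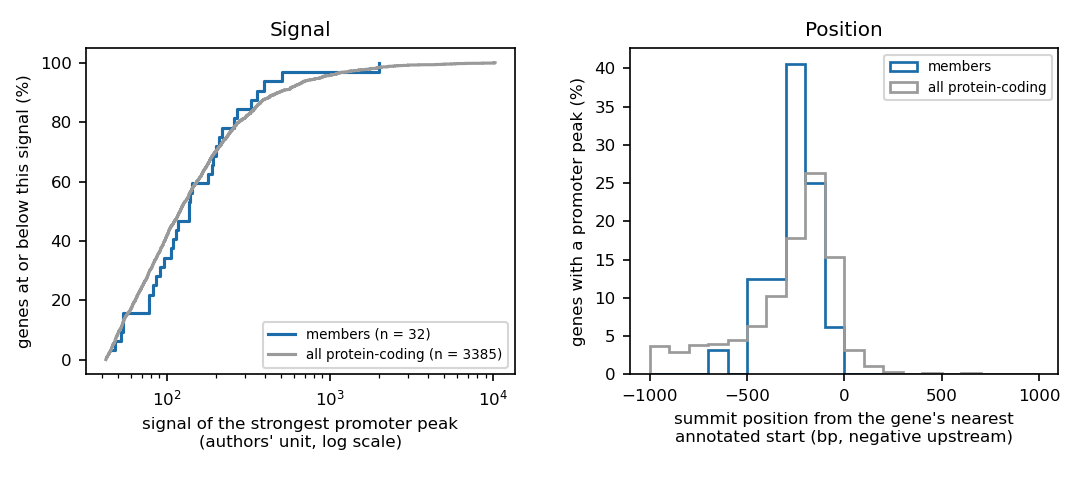
Left, cumulative share of genes (y axis, %) by signal of the strongest promoter peak (x axis, log scale, authors' unit) for the 32 nuclear pore and transport genes (blue) and all 3385 peak-bearing protein-coding genes (grey). Right, position of the summit from the gene's nearest annotated start (x axis, bp) as a share of genes (y axis, %). The signal curves run close together, with medians of 136.5 and 120.5. All blue summits lie upstream of that nearest start, 31 of 32 within 500 bp, against 76.1% of all such genes within 500 bp upstream.

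Many of these summits, like those of all peak-bearing genes, also lay in the window of another protein-coding gene. A shared window does not show which of the promoters is bound. In 19 of the 32 genes (59.4%) the summit lay in such a shared window, near the 52% over all peak-bearing protein-coding genes. All 20 other genes were on the opposite strand. The share by strand was not taken over all peak-bearing genes, so this is not read as a trait. The start of the other gene was the nearer one at 12 of the 32. These were npp-6, npp-7, npp-12, npp-14, npp-15, imb-1, ima-1, xpo-2, xpo-3, ran-1, ran-3 and ran-5. The gene's own start was the nearest at 20 (62.5%), against 72.7% over all such genes. Besides top-2, spd-5, unc-40 and cel-1, the neighbours were mei-1 (a katanin subunit) for npp-2, mrps-10 (a mitochondrial ribosomal protein) for npp-25, ntl-4 (CCR4-NOT complex) for npp-27, dvc-1 for ima-1, nol-14 (nucleolar) for xpo-2, dkc-1 (dyskerin) for ran-1, uvs-1 for xpo-1, mfsd-13.1 for imb-1 and ndab-1 for npp-16. Genes known by sequence names alone were F59A2.5 (npp-9, with golg-4), T23H2.3 (npp-12), C29E4.13 (npp-15), C49H3.3 (xpo-3), C26D10.3 (ran-3) and R12C12.6 (ran-5). Where each summit within 1000 bp of a protein-coding start was given to the nearest one alone, 21 of the 40 genes kept a peak (52.5%, exact interval 36.1 to 68.5), against 13.1% of all protein-coding genes. With summits in no other protein-coding window alone, 13 of 40 had one (32.5%, exact interval 18.6 to 49.1), against 8.13% of all: npp-5, npp-8, npp-13, npp-18, npp-19, npp-20, npp-22, npp-23, imb-2, imb-3, ima-2, ima-3 and ran-4. With the stronger 2109 peaks alone, 23 of 40 had one (57.5%), against 11% of all.

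Genes without a peak often followed a close neighbour on the same strand, an arrangement that in C. elegans includes genes transcribed together in operons. The nearest upstream protein-coding gene was on the same strand with a gap under 1000 bp (overlaps included) at 10 of the 40 genes, and 5 of these 10 had a peak, against 27 of the 30 other genes. Over all protein-coding genes a promoter peak stood at 12% of the 6121 with such a neighbour and at 19.1% of the 13852 without. The 5 with such a neighbour and no peak were npp-1, npp-4, npp-24, npp-26 and ran-2; ran-2 starts 479 bp after the end of npp-15, which has a peak at its own start. Members also neighbour each other at imb-3 and xpo-2 on chromosome I (3559 bp apart) and at npp-27 and xpo-3 on chromosome IV (6441 bp apart, with 1 protein-coding gene between), and each of these 4 genes had a peak of its own. Whether operon membership accounts for the missing peaks was not tested.

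The remaining 3 genes without a peak, npp-10, npp-11 and npp-21, have no such neighbour. At npp-10 replicate 1 had a peak with a signal of 56 at 369 bp upstream (rank 1872 of its 30000), while replicate 2 had 1 of 8.61 downstream of the start and the pooled list had none. At npp-21 replicate 1 had 42.4 at 567 bp upstream (rank 2548) and neither replicate 2 nor the pool had any. Both genes therefore count when replicate 1 is used alone. Such sites were few: of the strongest 4218 peaks of each replicate, 49 in replicate 1 and 75 in replicate 2 overlapped no pooled peak.

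By chromosome, the 40 genes fell on I (13), II, III and IV (8 each) and V (3), with none on X. Peaks stood at 11 of 13 genes on I, at 6 of 8 on each of II, III and IV and at 3 of 3 on V, against 24.8%, 17%, 27.2%, 16.5% and 10.3% of all protein-coding genes on these chromosomes in the same order. Across the autosomes the share of all protein-coding genes was 17.8%.

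Other genes of nuclear export and of the nuclear envelope were counted from lists chosen for their known roles. Messenger RNA export genes had a peak at 9 of 12 (75%, exact interval 42.8 to 94.5), against 16.9% of all protein-coding genes. Highest was thoc-7 of the THO complex with a pooled signal of 2075, at a promoter shared with the ribosomal protein gene rpl-29, followed by thoc-5 with 304, the helicase gene hel-1 with 240, the export receptor gene nxf-1 with 176 and its partner nxt-1 with 162. Lower were thoc-3 (144), aly-2 (110.4), thoc-2 (52.7) and aly-3 (45.9), and nxf-2, aly-1 and thoc-1 had none. SUMO pathway genes had a peak at 5 of 8 (62.5%, exact interval 24.5 to 91.5), with the activating enzyme gene uba-2 at 908, smo-1, which encodes SUMO, at 469.5, and the conjugating enzyme gene ubc-9 at 162.5. The proteases ulp-4 (90.8) and ulp-2 (48.4) were lower, and ulp-1, aos-1 and gei-17 had no peak. Nuclear envelope and lamina genes had a peak at 5 of 14 (35.7%, exact interval 12.8 to 64.9), namely lem-4 (235.4), emr-1, which encodes emerin (138), baf-1 (128), lem-2 (124) and lem-3 (97.9). The lamin gene lmn-1, the nucleoporin gene mel-28 and the genes vrk-1, unc-83, unc-84, sun-1, zyg-12, anc-1 and samp-1 had none. Besides thoc-7, the summits of uba-2, thoc-3, aly-2, hel-1, nxf-1, thoc-2, lem-4 and baf-1 also lay in windows of other protein-coding genes. The thoc-7 and thoc-3 summits lay 778 and 965 bp upstream of their genes. The 3 lists were set beside all genes and not tested against each other.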

How the data were processed

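ChIP-seq of eGFP-tagged LSY-2 was analysed from peak lists on the ce11 build. The authors deposited a list of 30000 peaks for each replicate and for both pooled, and an IDR-thresholded list of 4218, which equals the strongest 4218 pooled peaks when tested on the values. Each was called against a control alignment, per the deposited text listings. Neither aligner, peak caller, versions nor the IDR cut-off could be read from the labels or files used here. Signal values are as deposited by the authors. The deposited −log10 q values stood at their maximum of 4.16 throughout the IDR list and were not used further. Lists on ce10 were not used here.

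Positions were counted from 1 and matched to Ensembl release 115 (WBcel235, the assembly of ce11) and the RefSeq genome of that assembly; 74 of 74 annotated start codons of the members read as ATG there. Replicate signals at a peak came from the closest summit of that replicate, at most 200 bp away. Every member was named. No test was run: there is 1 group, and the members, role groups, related lists and 6-mers were chosen with earlier results of these data known. Shares carry 95% exact (Clopper-Pearson) intervals. Sequences were limited to the strongest peak of each role group off chromosome I, up to 8, and the npp-22 window was left out because it lies in a UTR. Alternatives covered peak strength, single replicates, other windows and overlap rules, the nearest start, unshared summits and other distances for 6-mers. The window and 6-mer code was tested on planted examples. Python 3.11.15, numpy 2.4.6, scipy 1.17.1 and matplotlib 3.10.9 were used.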

Additional observations from a re-analysis of the deposited data

How the results depend on the processing

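The count of 32 of 40 genes with a promoter peak was 21 with the nearest start alone and 13 with unshared summits alone. It stayed within 1.5 times, from 23 to 34, under the other planned settings: the stronger 2109 peaks (23), windows of 500 bp upstream to 100 bp downstream (32) and 2000 bp upstream to 200 bp downstream (34, with npp-4 and npp-26 added), and any overlap of 1 bp (32). With single replicates it was 31 to 32 (30 of the 32 genes shared without replicate 2, 31 without replicate 1). The median signal of 136.5 was 188 with the stronger 2109 peaks, which drops weaker ones by construction, 126.7 with the 2000 bp window, 109.5 with the nearest start and 178 with unshared summits (added after seeing the data). Its spread was taken as the SD of the replicate medians, 68.8 and 60.3. Replicate signals are lower than pooled ones, so this SD does not measure the error of the pooled median. The number of shared summits was 15 and 25 with the narrower and wider windows, against 19. The 6-mer shares stayed within their intervals with distances of 25 and 100 bp. No paired analysis was possible because the study has 1 group. Depth is unknown, so a gene without a peak past the threshold is not shown to be unbound.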
